A study of Mus musculus with 6 samples.

Results

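The genes described here are 33 genes of the unfolded protein response, the program by which cells answer a load of misfolded protein in the endoplasmic reticulum (ER). They were chosen by gene symbol, with earlier results of these data known, and all 33 symbols were found among the 24421 genes of the count table. Of these, 32 had enough reads for a test and are among the 13479 genes tested. The exception was *Derl3*, one of the derlins that help to move misfolded protein out of the ER, with raw read counts of 0, 1 and 3 in the *Nhe6*-knockout cultures and 8, 17 and 5 in the wildtype cultures.

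In the unfolded protein response, the ER membrane proteins IRE1 (encoded by *Ern1*), PERK (*Eif2ak3*) and ATF6 sense misfolded protein in the ER lumen. IRE1 splices the messenger RNA of *Xbp1* into the form that encodes an active transcription factor, PERK slows translation while favouring that of *Atf4*, and ATF6 is cut in the Golgi to free its own transcription factor domain. These factors raise transcription of ER chaperones, folding enzymes and the machinery of ER-associated degradation, and endothelial and other secretory cells rely on the same proteins to fold the membrane and matrix glycoproteins that they export.

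RNA sequencing was performed on 6 primary cultures labelled as endothelial cells of the stria vascularis, the vascularized epithelium of the cochlear lateral wall, 3 from *Nhe6*-knockout and 3 from wildtype mice. The knockout is a germline disruption carried by every cell. The mice were 10 to 12 days old, the cultures were untreated, each culture pooled cells of several mice, and the cells had been sorted and passaged before RNA was taken. The labels give the strain background of both genotypes as C57BL/6N, whereas the methods of the study describe a backcross to C57BL/6J, so a substrain difference cannot be told apart from the genotype.

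Reads on genes numbered 25587097 to 29126232 per library, and the 33 genes took 0.812% to 0.917% of them. The cell type label was met only in part, because several defining markers were at or near 0 and others were abundant. *Cldn5* and *Robo4* had 0 reads in every library (each allows up to 3 reads), *Tie1* had at most 2, *Pecam1* at most 8, *Erg* at most 15 and *Vwf* at most 25. Of the other markers, *Emcn* ran from 409 to 18385 normalized counts (reads per gene, scaled to a common library size) over the libraries. *Eng* ran from 866 to 5079, *Cd34* from 793 to 4864, *Flt1* from 378 to 3174 and *Tek* from 189 to 1006. Lower levels were found for *Egfl7*, from 139 to 319, *Esam*, from 2.84 to 237, and *Kdr*, from 0.978 to 70.1. *Cdh5*, encoding VE-cadherin, was present at 219.8, 232 and 179 normalized counts in the knockout cultures and at 2508, 5198 and 3468 in the wildtype cultures, while 12 fibroblast markers summed to 267760 to 401500 per library. Wildtype replicate 2 stood apart from the other libraries, with a mean chi-square per gene of 327 to 477 against each of them and at most 279 between the others, and a log2 fold change of the 32 genes that moved by over 1.5 times or changed sign without it is also given without it. Knockout replicates 1 and 2 lay closer to each other than any other pair did, at 5.36 against 107 for the next closest pair, but differed by more than sampling noise. They were counted as 2 cultures by their labels, and whether they were grown separately is not given in the sources used here.

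The transcription factors of the response act through short DNA elements in the promoters of their targets, and some of these promoters are shown first because the genes fall into those with and those without such an element. The RefSeq table (GRCm38.p6) gave a promoter, from 250 bases before to 50 bases after the start of transcription, for 29 of the 33 genes. It held no entry for *Atf6*, *Manf*, *Hyou1* and *Derl1*. The ER stress response element (ERSE), bound by NF-Y at its CCAAT end and by ATF6 or XBP1 at its CCACG end, was searched as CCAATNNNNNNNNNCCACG on both strands, as were the other elements. It was found in 9 of the 29 promoters (31.0%), against 29 of 17224 genes with a promoter in the table (0.168%) and 39 of 32851 promoters (0.119%). The 9 genes were *Hspa5*, *Hsp90b1*, *Calr*, *Canx*, *Pdia6*, *Dnajc3*, *Creld2*, *Syvn1* and *Derl3*. They are also part of the 29 of 17224 genes. The 33 genes were listed as genes of this response, so the higher share is no independent finding. The related ERSE-II, searched as ATTGGNCCACG, was found in *Herpud1* and *Dnajb11* (6.90% of the 29 genes against 0.0523% of all genes). The core of the unfolded protein response element, TGACGTGG, was found in 0 of the 29 and in 0.865% of all genes. The C/EBP-ATF response element bound by ATF4, searched as TGATGNAA, was found in *Herpud1*, *Trib3*, *Chac1* and *Asns* (13.8% against 4% of all genes). A match is a stretch of letters and not a measured binding site. ERSE and ERSE-II matches did not overlap each other in these promoters.

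The stretches below, credited to RefSeq, are printed in the sense of the gene from 5′ to 3′, with the matched element in capitals. *Hspa5* is shown from base -250 to base -1 relative to its start of transcription because it is the classical target of the response, at chr2:34771840-34772089 on the plus strand with an ERSE from -65 to -47.
Hspa5: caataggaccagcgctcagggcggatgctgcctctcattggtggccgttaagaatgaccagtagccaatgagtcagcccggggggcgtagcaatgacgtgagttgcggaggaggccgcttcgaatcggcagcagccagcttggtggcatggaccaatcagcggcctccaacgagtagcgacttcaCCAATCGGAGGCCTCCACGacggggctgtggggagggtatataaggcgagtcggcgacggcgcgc
*Hsp90b1* carried a pair of ERSE matches, in opposite orientations, at chr10:86705513-86705676 on the minus strand.
Hsp90b1: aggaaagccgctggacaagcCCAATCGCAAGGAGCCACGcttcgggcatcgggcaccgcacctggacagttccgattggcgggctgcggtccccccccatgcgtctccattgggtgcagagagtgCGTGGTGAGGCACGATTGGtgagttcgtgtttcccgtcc
*Calr* (chr8:84847055-84847113, minus strand) and *Creld2* (chr15:88819500-88819558, plus strand) are shown because their single ERSE lies in the reverse orientation, so that it reads CGTGG first.
Calr: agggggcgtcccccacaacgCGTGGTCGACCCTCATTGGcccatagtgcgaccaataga
Creld2: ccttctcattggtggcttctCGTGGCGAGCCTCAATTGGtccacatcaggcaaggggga
*Dnajc3* (chr14:118937807-118937865, plus strand) and *Pdia6* (chr12:17266471-17266529, plus strand) are shown as a pair because both hold a forward ERSE and their log2 fold changes between the genotypes had opposite signs.
Dnajc3: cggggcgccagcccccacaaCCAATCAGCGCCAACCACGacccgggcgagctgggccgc
Pdia6: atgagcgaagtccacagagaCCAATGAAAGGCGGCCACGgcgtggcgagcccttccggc
*Herpud1* (chr8:94386297-94386407, plus strand) held an element of each kind, the ATF4 element on the reverse strand first and the ERSE-II after it.
Herpud1: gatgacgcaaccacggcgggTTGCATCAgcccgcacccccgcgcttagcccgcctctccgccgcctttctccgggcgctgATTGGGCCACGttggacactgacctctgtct
*Asns* (chr6:7693210-7693252, minus strand) is shown as the gene with an ATF4 element next to its start, from -23 to -16.
Asns: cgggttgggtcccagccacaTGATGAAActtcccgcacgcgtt

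**Figure D1:**
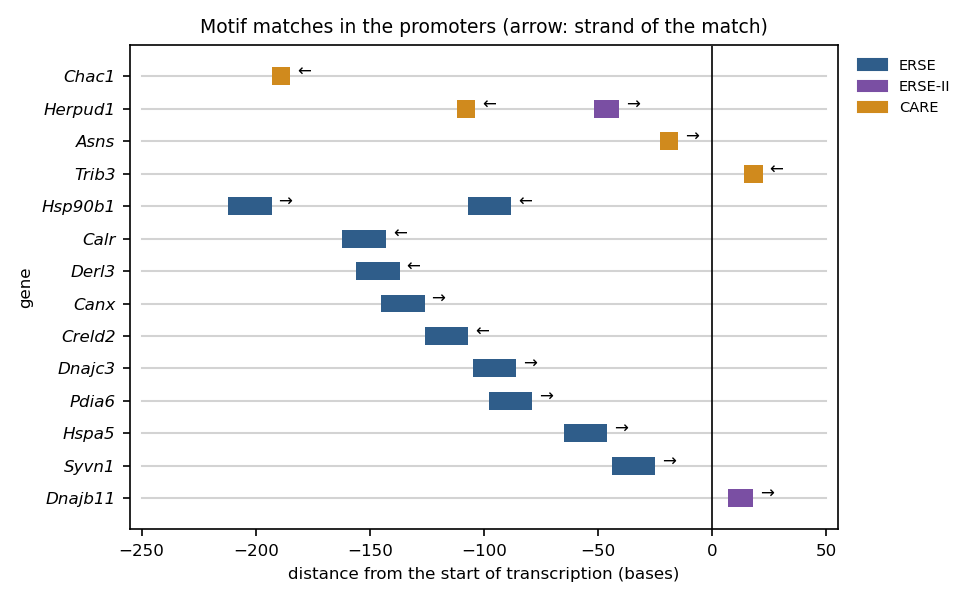
Positions of the motif matches in the promoters of the 14 genes that held a match, in bases from the start of transcription (x axis; y axis: gene). Blue blocks are ERSE, purple blocks ERSE-II and ochre blocks the ATF4-binding element, with arrows for the strand of the match; all ERSE matches lie before the start, between -212 and -26.

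Most of the genes had slightly lower values in the knockout than in the wildtype cultures, by amounts that passed the test for none of the 32. Of the 32 genes tested, 24 (75%) had a negative log2 fold change, against 51.9% of all genes tested. Their median log2 fold change was -0.20, against -0.02 for all genes. An adjusted p below 0.05 by the quasi-likelihood method of edgeR was reached by 0 of the 32, against 9 of 13479 genes (0.0668%), and the lowest adjusted p among the 32 was 0.287. An unadjusted p under 0.05 was reached by 5 genes with lower values in the knockout cultures (15.6%, against 5.71% of all genes) and by 1 gene with higher values, *Pdia6* (6.14% of all genes). The 5 were *Dnajb9*, *Sdf2l1*, *Dnajc3*, *Manf* and *Herpud1*. In 8 genes (25%) every knockout culture lay below every wildtype culture, against 9.57% of all genes, and in *Pdia6* alone every knockout culture lay above (10.3% of all genes).

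With 3 cultures per genotype, an exact permutation test of a single gene cannot give a two-sided p below 0.1, and p-values here measure the spread between these cultures. With knockout replicates 1 and 2 counted as separate cultures, the 95% interval of the log2 fold change lay between -1 and 1 in 27 of the 32 genes (84.4%, against 60.1% of all genes). The 5 outside were *Atf4*, *Dnajb9*, *Ppp1r15a*, *Chac1* and *Trib3*. SEs ran from 0.11 to 0.44 for genes whose mean reached 100 normalized counts. DESeq2's Wald test called 1 of the 32 genes, *Dnajc3* (adjusted p = 0.0368), against 4.65% of all genes. When knockout replicate 1, 2 or 3 was left out, 2, 1 and 1 of the 32 genes had an unadjusted p below 0.05 (edgeR). The number over all genes went from 1596 to 859, 849 and 1371, and leaving out a culture also leaves fewer values for the test. With knockout replicates 1 and 2 summed, 2 of the 32 and 847 of all genes had such a p. The lowest adjusted p among the 32 was then 0.79 (edgeR), and the intervals were not counted under that setting. Without wildtype replicate 2, the median of the 32 genes was -0.06 against 3e-04 for all genes, 22 of the 32 (68.8%) were below 0 against 49.9% of all genes, and 1 gene, *Dnajb9*, had an adjusted p under 0.05 (log2 fold change -0.83, adjusted p = 0.0325, edgeR), against 2.88% of all genes. An unadjusted p under 0.05 was then reached by 7 of the 32 (21.9%) against 19.5% of all genes, and 11 (34.4%) showed no overlap against 38.2% of all genes, so these shares were near or below the background.

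**Figure D2:**
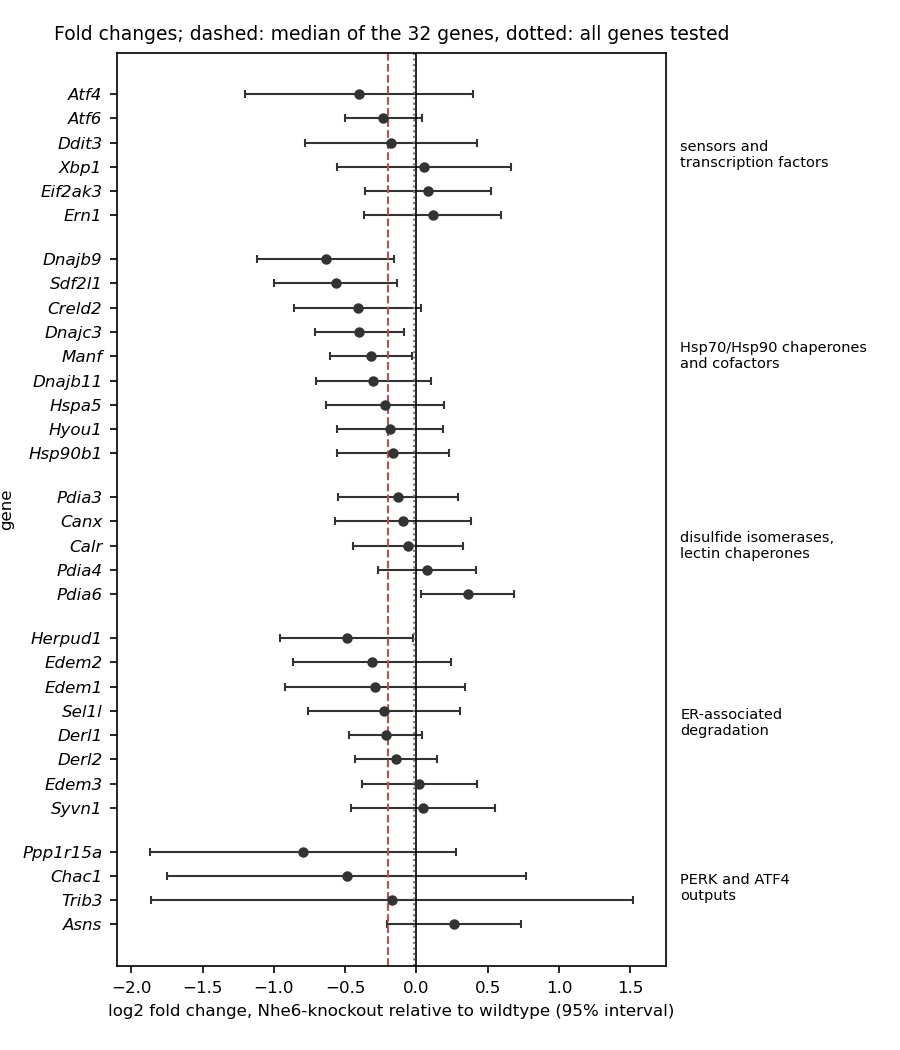
Log2 fold change of the 32 genes tested, *Nhe6*-knockout relative to wildtype (x axis; points), with 95% intervals from edgeR (bars), grouped by role (y axis). The dashed line marks the median of the 32 genes, -0.20, and the dotted line that of all genes tested, -0.02; the points of all 9 Hsp70 and Hsp90 chaperones and cofactors lie left of 0.

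Among the sensors and transcription factors, 3 of 6 had a negative log2 fold change, with a median of -0.06, and *Atf6* was the only gene without overlap between the genotypes. *Atf6*, the sensor that becomes a transcription factor, was measured at 2101, 2085 and 1842 normalized counts in the knockout cultures and at 2369.5, 2230 and 2488 in the wildtype cultures. Each knockout culture lay below each wildtype culture, the gap was small, and the log2 fold change was -0.23 (SE 0.11, unadjusted p = 0.0791, adjusted p = 0.478, edgeR). *Ern1*, the sensor kinase and RNase IRE1, had levels of 1023, 1188 and 1057 in knockout and 938, 797 and 1287 in wildtype cultures, so that the lowest and the highest culture were both wildtype. *Eif2ak3*, the sensor kinase PERK, stood at 1866, 1838 and 1359 against 1508, 1891 and 1391. Both genotypes of *Eif2ak3* spanned nearly the same range, and its log2 fold change was 0.08 (95% interval -0.36 to 0.52), beside 0.11 (-0.37 to 0.59) for *Ern1*. These values were 0.21 and -0.04 without wildtype replicate 2.

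*Xbp1*, the substrate of IRE1, was measured at 3806, 3532 and 1979.5 normalized counts in the knockout cultures and 3239.5, 2738 and 2999 in the wildtype cultures. The knockout cultures enclosed the wildtype ones, with replicates 1 and 2 above and replicate 3 below all of them, and the log2 fold change was 0.05 (-0.55 to 0.66), and -0.01 without wildtype replicate 2. Counts per gene do not separate the spliced from the unspliced form of *Xbp1*, nor do they show protein cleavage or phosphorylation, so activity of the sensors was not measured. *Atf4*, the transcription factor of the PERK branch, had 3748, 3849 and 3740.4 in the knockout cultures and 7881, 3399 and 3698 in the wildtype cultures. Wildtype replicate 1 was 2.05 times the next highest culture and the other 5 lay close together. Its log2 fold change of -0.40 (SE 0.33) became 0.09 without wildtype replicate 1 and -0.62 without wildtype replicate 2. *Ddit3*, encoding CHOP, a transcription factor tied to cell death under lasting ER stress, stood at 307, 354 and 496 against 449, 516 and 342, with overlapping genotypes and a log2 fold change of -0.18 (-0.78 to 0.43). It was -0.04 without wildtype replicate 2 or without knockout replicate 1, and -0.41 without knockout replicate 3.

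**Figure D3:**
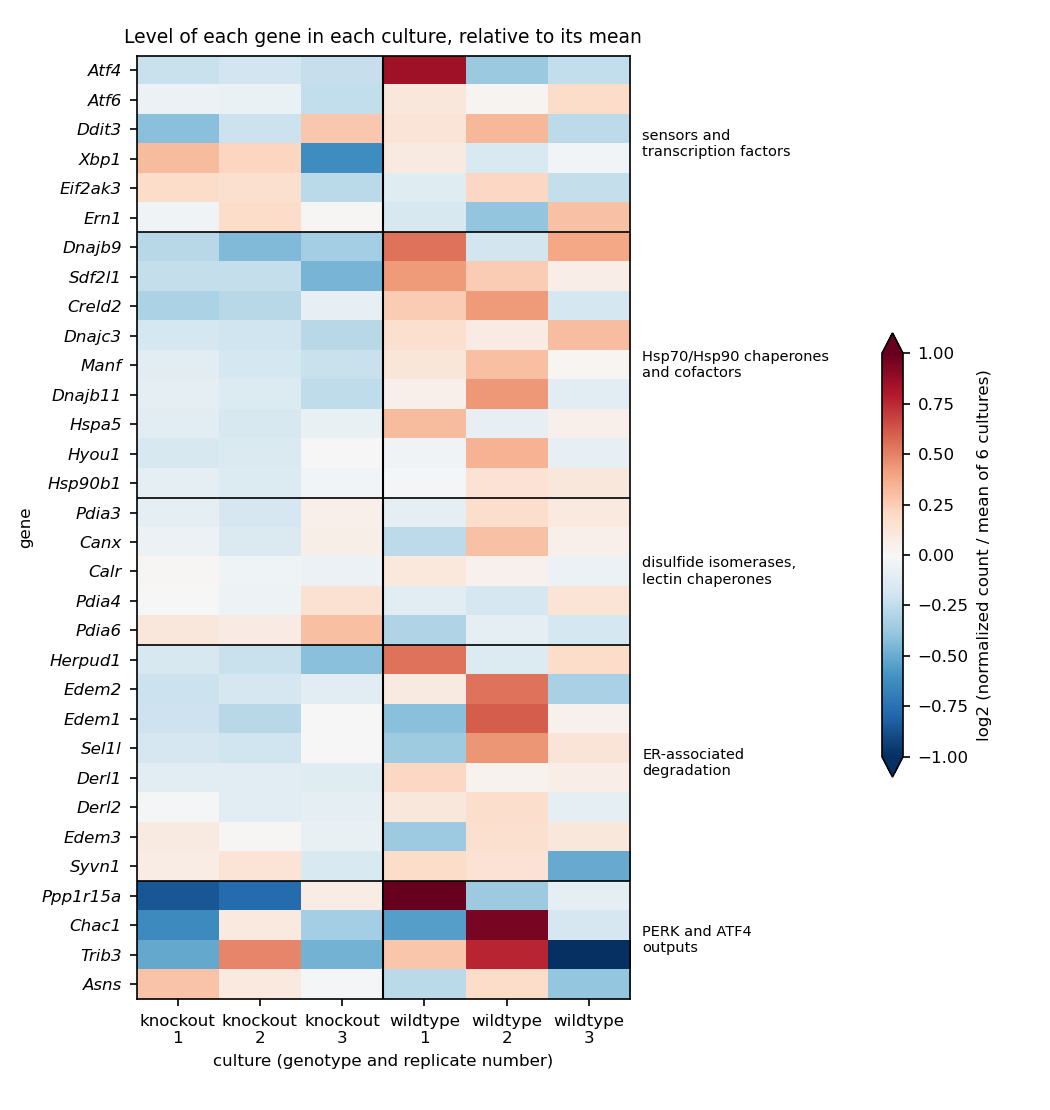
Level of each of the 32 genes (y axis, grouped by role) in each culture (x axis), as log2 of the normalized count over the mean of the 6 cultures, red above and blue below the mean. Colours end at -1 and 1, past which lie *Ppp1r15a* in wildtype replicate 1 and *Trib3* in wildtype replicate 3; the rows of the Hsp70 and Hsp90 chaperones are blue or near white in the knockout columns.

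The role with the most genes without overlap was that of the Hsp70 and Hsp90 chaperones with their cofactors, where all 9 genes had a negative log2 fold change (median -0.32, range -0.64 to -0.16) and 5 of the 9 were lower without overlap between the genotypes, against 51.9% and 9.57% of all genes. The direction of all 9 was the same in every alternative tried. The summed level of the 9 genes was 75523 to 79474 normalized counts in the knockout cultures and 90521 to 92947 in the wildtype cultures. Most of this sum came from *Hspa5* and *Hsp90b1* (unadjusted p = 0.248 and 0.348, edgeR). The sum restates the values by which this role was singled out and is no further evidence. No gene of the group had an edgeR adjusted p below 0.05, and 4 had lower values with an unadjusted p under 0.05, against 5.71% of all genes. In these bulk cultures, fewer cells of a type and less RNA per cell cannot be told apart.

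*Dnajb9* (chr12:44205559-44210326, minus strand, GRCm38), encoding the J-domain cochaperone ERdj4 that recruits BiP to IRE1, was measured at 1710.2, 1524 and 1636 normalized counts in the knockout cultures and 3024, 1829.8 and 2719 in the wildtype cultures. The genotypes did not overlap, but wildtype replicate 2 came within reach of the knockout cultures. The mean was 1624 ± 93.5 in knockout and 2524 ± 621 in wildtype cultures (SD, n = 3), or 64.3% of the wildtype level, a log2 fold change of -0.64 (SE 0.20, unadjusted p = 0.0171, adjusted p = 0.287, edgeR).

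*Sdf2l1* (chr16:17130138-17132383, minus strand), a partner of the ER J-domain proteins in BiP cycles, had 255, 255 and 218 in the knockout cultures and 405, 358 and 314 in the wildtype cultures. All knockout cultures lay below all wildtype cultures, with a log2 fold change of -0.57 (SE 0.18, unadjusted p = 0.0172, adjusted p = 0.287, edgeR). *Dnajc3* (chr14:118937976-118981697, plus strand), encoding the cochaperone P58IPK that also inhibits PERK, stood at 8429, 8299.5 and 7861 against 10652, 10042 and 11776. The knockout cultures lay close together and below every wildtype culture, and the log2 fold change was -0.40 (SE 0.13, unadjusted p = 0.0192, adjusted p = 0.3, edgeR). *Manf* (chr9:106838312-106891979, minus strand), a secreted ER-resident protein that binds BiP, had 2281, 2164 and 2095 in the knockout cultures and 2664, 3015 and 2476 in the wildtype cultures, again without overlap, at 80.2% of the wildtype mean (log2 fold change -0.32, SE 0.12, adjusted p = 0.37, edgeR).

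*Hspa5*, encoding BiP, the ER Hsp70 that keeps the sensors inactive, was measured at 23997, 23101 and 24474 normalized counts in the knockout cultures and 32200, 24412 and 26699 in the wildtype cultures. Wildtype replicate 1 was the highest and wildtype replicate 2 lay just below knockout replicate 3, so the genotypes overlapped. The log2 fold change was -0.22 (-0.63 to 0.20), and -0.10 without wildtype replicate 1. *Hsp90b1*, encoding the ER Hsp90 GRP94, had 33364, 32261 and 34980 against 35016, 39322 and 38378. Its genotypes did not overlap, but the highest knockout culture nearly met the lowest wildtype culture, and the log2 fold change was -0.16 (unadjusted p = 0.348, edgeR). About 10.3% of the exonic bases of *Hsp90b1* are shared with a pseudogene annotated on the opposite strand, and the strand setting of the counting is not given in the sources used here.

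*Dnajb11*, encoding the cochaperone ERdj3, stood at 3300.5, 3206 and 2959.8 against 3654, 4761 and 3251. Its wildtype replicate 2 was 1.30 times the next culture, and the log2 fold change of -0.30 became -0.13 without that culture. *Hyou1*, a nucleotide exchange factor for BiP, had 3981, 4024 and 4462 in the knockout cultures and 4335, 5657 and 4208 in the wildtype cultures, with the same dependence (-0.19, and -0.04 without wildtype replicate 2). *Creld2*, a small ER protein strongly induced by ER stress, had 671, 689 and 788 against 997, 1124 and 740.1. Knockout replicate 3 exceeded wildtype replicate 3, and the log2 fold change was -0.41 (SE 0.19, unadjusted p = 0.0652, adjusted p = 0.455, edgeR).

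**Figure D4:**
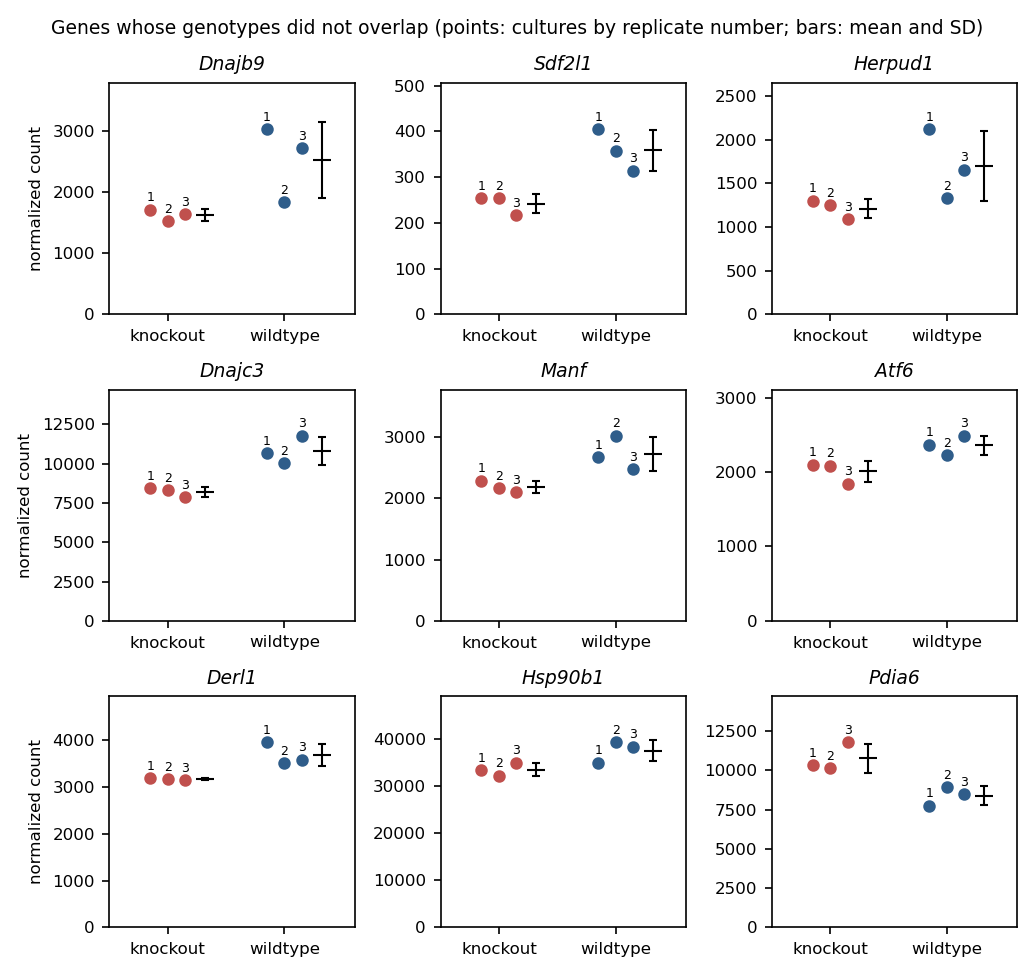
Normalized counts (y axes, from 0) of the 9 genes whose knockout and wildtype cultures did not overlap. Red points are knockout and blue points wildtype cultures, numbered by replicate, and bars give the mean and SD (n = 3); the knockout points lie below the wildtype points in 8 panels and above them in the *Pdia6* panel.

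The disulfide isomerases and lectin chaperones, which form disulfide bonds and hold glycoproteins until they are folded, differed in direction among themselves. Of 5 genes, 3 had a negative log2 fold change and the median was -0.06. *Pdia6* (chr12:17266545-17284770, plus strand), a disulfide isomerase that also acts on the luminal domain of IRE1, was measured at 10333, 10147 and 11785 normalized counts in the knockout cultures and 7749, 8924 and 8466 in the wildtype cultures. Every knockout culture lay above every wildtype culture, at 128% of the wildtype mean, with a log2 fold change of 0.36 (SE 0.14, unadjusted p = 0.0356, adjusted p = 0.373, edgeR). The value ranged from 0.28 to 0.40 over the alternatives. *Pdia4*, another isomerase, had 7652, 7366 and 8523 against 7115, 6821 and 8423, with the highest knockout and the highest wildtype culture nearly level and a log2 fold change of 0.07 (-0.27 to 0.42), or 0.01 without wildtype replicate 2.

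*Pdia3*, the isomerase that works with the lectin chaperones, stood at 32670, 31059 and 36205 in the knockout cultures and 32686, 39424 and 37358 in the wildtype cultures. *Calr*, encoding calreticulin, the soluble lectin chaperone, had 37073, 35729 and 35215 against 39458, 37851 and 35279. *Canx*, encoding calnexin, its membrane-bound counterpart, had 25075, 23533 and 27108 against 21694, 31978 and 27054. Genotypes overlapped for all of these, with log2 fold changes of -0.13 (-0.55 to 0.29) for *Pdia3*, -0.06 (-0.45 to 0.33) for *Calr* and -0.09 (-0.57 to 0.38) for *Canx*. The value of *Canx* became 0.04 and that of *Pdia3* -0.08 without wildtype replicate 2, the highest culture of both. That of *Calr* was -0.03 without wildtype replicate 1. Scaled to exonic length, *Calr* was the most abundant of the 32 genes, at 12500 ± 333 (SD, n = 3) normalized counts per kilobase in knockout and 13030 ± 732 in wildtype cultures. *Pdia3* followed at 10610 ± 839 and 11620 ± 1100 and *Hsp90b1* at 8317 ± 339 and 9318 ± 561 per kilobase. *Hspa5* stood at 5641 ± 165 and 6567 ± 947 per kilobase, and did not differ from *Canx*, at 5378 ± 382 and 5734 ± 1096, beyond the spread between cultures. The sensors were far less abundant, at 280 ± 47.3 and 265 ± 43.3 per kilobase for *Eif2ak3*, 218 ± 15.7 and 256 ± 14.0 for *Atf6* and 133 ± 10.7 and 123 ± 30.8 for *Ern1*.

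In ER-associated degradation, by which misfolded proteins are drawn back across the ER membrane and passed to the proteasome, 6 of 8 genes tested had a negative log2 fold change, with a median of -0.22, and *Herpud1* and *Derl1* were lower without overlap, against 51.9% of all genes below 0 and 9.57% lower without overlap. *Herpud1* (chr8:94386438-94395377, plus strand), a membrane protein that organizes the degradation complex, was measured at 1302, 1248 and 1088 normalized counts in the knockout cultures and 2120.2, 1328 and 1658 in the wildtype cultures. Wildtype replicate 1 was highest, wildtype replicate 2 lay just above the knockout cultures, and the mean was 71.2% of wildtype (log2 fold change -0.49, SE 0.19, unadjusted p = 0.0416, adjusted p = 0.398, edgeR), and the log2 fold change was -0.31 without wildtype replicate 1. *Derl1*, a derlin of the retrotranslocation channel, had 3194, 3169 and 3157 against 3961, 3512 and 3588. Its 3 knockout cultures lay close together, all below the wildtype cultures, with a log2 fold change of -0.22 (SE 0.11, unadjusted p = 0.0843, adjusted p = 0.487, edgeR). *Derl2*, a second derlin, had 1445, 1349.8 and 1372 against 1581, 1647 and 1365, with overlap and a log2 fold change of -0.14 (-0.43 to 0.15), or -0.09 without wildtype replicate 2.

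*Sel1l* and *Syvn1* encode the adaptor and the ubiquitin ligase HRD1 of the main degradation complex. *Sel1l* had 8343, 8157 and 9385 normalized counts in the knockout cultures and 7299, 12736 and 10252 in the wildtype cultures, where wildtype replicate 1 was the lowest and wildtype replicate 2 the highest of all 6. *Syvn1* had 1325, 1387 and 1134 against 1434, 1398 and 891, with wildtype replicate 3 the lowest. Neither differed by more than the spread between cultures, with log2 fold changes of -0.23 (-0.76 to 0.31) and 0.05 (-0.46 to 0.55). That of *Sel1l* was -0.03 without wildtype replicate 2 and -0.42 without wildtype replicate 1, and that of *Syvn1* was 0.14 without wildtype replicate 2.

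The mannosidase-like proteins EDEM1, EDEM2 and EDEM3 trim glycans to mark proteins for degradation. *Edem1* was measured at 1893, 1801 and 2190.5 in the knockout cultures and 1633, 3317 and 2250.2 in the wildtype cultures, *Edem2* at 587, 607 and 634 against 726, 994 and 544, and *Edem3* at 4063, 3845 and 3637 against 2971, 4272 and 4143. Wildtype replicate 2 was the highest culture for each of them, and the knockout values lay within the wildtype range. The log2 fold change of *Edem1* was -0.29 and became 0.01 without wildtype replicate 2, that of *Edem2* was -0.31 and became -0.07, and that of *Edem3* was 0.02 and became 0.11.

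The outputs of the PERK and ATF4 branch gave the widest spread and 0 genes without overlap, with 3 of 4 log2 fold changes below 0 and a median of -0.33. *Ppp1r15a*, encoding GADD34, which restores translation after PERK has acted, was measured at 1164, 1241 and 2223 normalized counts in the knockout cultures and 4429, 1640 and 1971 in the wildtype cultures. Wildtype replicate 1 was 1.99 times the next highest culture, which was knockout replicate 3. The log2 fold change was -0.80 (SE 0.44, adjusted p = 0.549, edgeR) and ran from -1.16 without knockout replicate 3 to -0.23 without wildtype replicate 1. *Asns*, encoding asparagine synthetase, an amino acid enzyme under ATF4, had 777, 681 and 629 against 528, 722 and 487, with overlap and a log2 fold change of 0.27 (-0.20 to 0.73), or 0.45 without wildtype replicate 2.

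*Trib3*, a pseudokinase induced by ATF4 and CHOP, and *Chac1*, a glutathione-degrading enzyme, were near the lower limit of measurement. *Trib3* had 20.2, 40.9 and 20.8 normalized counts in the knockout cultures and 35.2, 49.5 and 7.49 in the wildtype cultures. *Chac1* had 13.8, 23.2 and 17 against 14.7, 42.3 and 19.2. Their intervals, -1.86 to 1.52 and -1.75 to 0.77 on the log2 scale, include both a marked decrease and a marked increase. No difference was detectable between these cultures, and the part of read depth was not tested. The log2 fold changes, -0.17 and -0.49, became 0.34 and 0.09 without wildtype replicate 2.

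Genes with and genes without an ERSE both had mostly negative values. The 8 tested genes with an ERSE had a median log2 fold change of -0.13, with 6 below 0, and the 20 tested genes whose promoter held none had a median of -0.20, with 14 below 0. *Dnajc3* and *Pdia6*, whose elements are printed side by side above, had values of -0.40 and 0.36. Of 20 other genes with an ERSE in their promoter, 8 were tested, with a median of 0.13 and 3 below 0.

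The RNA levels of these genes also differed between the wildtype cultures. Of the 32 genes, 16 (50%) were highest in wildtype replicate 2, against 26.8% of all genes tested, and 9 (28.1%) in wildtype replicate 1, against 19.8%. The highest value lay in a knockout culture for 4 genes (12.5%, against 33.7% of all genes), and the lowest in a knockout culture for 20 (62.5%, against 31.2%). By role, 5 of 9 chaperones and cofactors and 5 of 8 degradation genes were highest in wildtype replicate 2, and 3 of 9 and 3 of 8 in wildtype replicate 1. The 9 genes highest in wildtype replicate 1 were *Atf4*, *Ppp1r15a*, *Hspa5*, *Dnajb9*, *Sdf2l1*, *Calr*, *Herpud1*, *Syvn1* and *Derl1*.

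Of the other stress genes, some were also high in wildtype replicate 1 and others were not. *Atf3*, a stress-induced transcription factor downstream of ATF4, was measured at 63.7, 92.9 and 235 normalized counts in the knockout cultures and 1702, 318 and 181 in the wildtype cultures, and *Dnajb1*, a cytosolic Hsp40 of the heat shock response, at 1313, 1385 and 2363 against 12416, 2570.4 and 2559. Both were several times higher in wildtype replicate 1 than in any other culture. *Hsp90aa1*, a cytosolic Hsp90, was instead highest in wildtype replicate 2, at 9943 normalized counts against 8386 in wildtype replicate 1. *Psat1*, another ATF4 target, stood at 689 in wildtype replicate 1 and 973 in wildtype replicate 2. In wildtype replicate 2, the collagen gene *Col1a1*, named after its values were seen, stood at 27174 normalized counts against 207 to 1227 in the other 5. The part of these differences between cultures in the levels of the unfolded protein response genes was not tested.

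**Figure D5:**
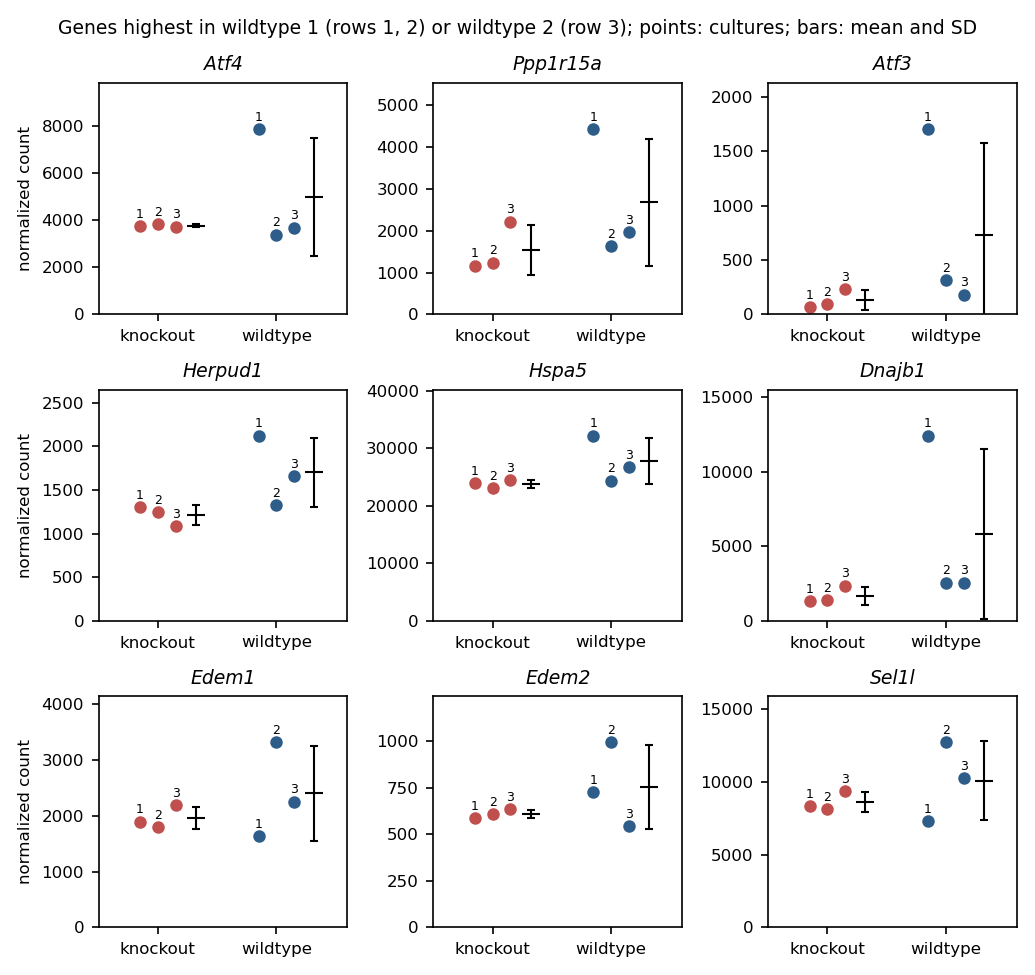
Normalized counts (y axes, from 0) of genes highest in wildtype replicate 1 (upper rows, with *Atf3* and *Dnajb1* beside 4 unfolded protein response genes) and in wildtype replicate 2 (bottom row). Points are cultures, numbered by replicate and coloured red for knockout and blue for wildtype, and bars give the mean and SD (n = 3), with the lower bar of wildtype *Atf3* cut at 0; a single wildtype culture stands above the other 5 in each panel.

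The remaining genes of the pathway were described by lists of related function. Among other degradation genes, 16 of 20 tested had a negative log2 fold change, with a median of -0.22, 5 had lower values without overlap and 1 an unadjusted p under 0.05, beside the shares of all genes of 51.9%, 9.57% and 5.71%. That gene was *Selk*, encoding a selenoprotein of the ER membrane, at 2017, 1892 and 1880.1 normalized counts in knockout and 2765, 3044 and 2426 in wildtype cultures (log2 fold change -0.51, adjusted p = 0.178, edgeR, and 0.0253 by DESeq2). *March6*, encoding a ubiquitin ligase of the ER membrane, had 4826, 4708 and 4675 against 5189, 5622 and 6221, without overlap. Other folding and disulfide enzymes had 14 of 20 values below 0 and a median of -0.21. Of these, 3 were lower and 1 higher without overlap, against 9.57% and 10.3% of all genes, and 0 had an unadjusted p under 0.05. *Sil1*, an exchange factor for BiP, was lower in each knockout culture, at 1046, 1047 and 1059.8 against 1583, 1180 and 1187, as was *Sdf2*, the paralogue of *Sdf2l1*, at 2225, 2138 and 2384 against 2772, 2808 and 2464.

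Genes of ER translocation and glycosylation were balanced, with 12 of 24 below 0 and a median of 0.00. Within them *Sec62*, a translocon subunit that also serves in clearing excess ER after stress, had 8951, 8380.3 and 10365 in knockout and 12768, 18262 and 15405 in wildtype cultures, without overlap (log2 fold change -0.75, adjusted p = 0.185, edgeR, and 0.00879 by DESeq2). Other signalling genes and transcription factors had 5 of 18 below 0 and a median of 0.15. *Eif2ak2*, the double-stranded RNA kinase PKR that phosphorylates the same translation factor as PERK, had 3372, 3367 and 2406 against 1508, 2408 and 2073, a log2 fold change of 0.61 (unadjusted p = 0.0308, adjusted p = 0.362, edgeR). Other ATF4 targets had 13 of 29 below 0 and a median of 0.07, and *Psph*, of serine synthesis, had 786, 739 and 382 against 351, 276 and 340.1, higher without overlap (log2 fold change 0.98, adjusted p = 0.274, edgeR). No gene of these lists had an edgeR adjusted p below 0.05, against 0.0668% of all genes, and 2 genes, *Selk* and *Sec62*, did by DESeq2, against 4.65%.

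Cell cycle genes had higher values in the knockout cultures. All 16 cell cycle genes listed had a log2 fold change above 0, with a median of 2.73, whereas 51.9% of all genes were below 0. Of the 16, 15 had higher values with an unadjusted p under 0.05 (edgeR), against 6.14% of all genes. In 14 the knockout cultures were higher without overlap, against 10.3%. An adjusted p under 0.05 was reached by 0 in edgeR and by 13 in DESeq2, against 0.0668% and 4.65% of all genes. Their summed level was 8579 to 15953 normalized counts in the knockout cultures and 2556 to 4006 in the wildtype cultures. Fibroblast markers, with 5 of 12 values below 0, summed to 280820 to 297880 in the knockout and 267760 to 401500 in the wildtype cultures. Endothelial markers, with 5 of 9 tested below 0, summed to 16875 to 25933 and 15983 to 23640, so the sums of both lists overlapped between the genotypes. *Emcn* made up most of the endothelial sum in every library except wildtype replicate 2, so that sum says little about the other markers. Single genes did not all overlap. Of the 9 endothelial markers, 2, *Cdh5* and *Flt1*, were lower without overlap, against 9.57% of all genes. *Cdh5* had a log2 fold change of -4.15 and an adjusted p of 0.0133 (edgeR), where 0.0668% of all genes were under 0.05. Lower values with an unadjusted p under 0.05 (edgeR) were found for 3 of the 9, against 5.71%. Of the 12 fibroblast markers, 3 were higher without overlap, against 10.3%, and 0 lower. The sums of mural markers overlapped too, at 22082 to 24360 and 16261 to 35264, but 5 of 10 mural markers tested were higher without overlap, against 10.3% of all genes, and 4 of the 10 had a negative log2 fold change, with a median of 0.78. *Notch3* was measured at 1842, 1945 and 2828 against 692, 1379 and 722 (adjusted p = 0.209, edgeR, and 0.0155 by DESeq2), and the fibroblast marker *Dcn* at 4048, 3832 and 4832 against 1969.7, 1862 and 2512 (adjusted p = 0.0952, edgeR, and 5.42e-05 by DESeq2), both higher without overlap. Macrophage markers summed to 1332 to 3369 in the knockout and 95.9 to 3288 in the wildtype cultures. Melanocyte markers summed to 405 to 710 and 288 to 1171, and epithelial markers to 56.8 to 663 and 3.09 to 1088. Each of these lists was lowest in wildtype replicate 2. The part of proliferation and of the mix of cells in the levels of the unfolded protein response genes was not tested.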

How the data were processed

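Cultures were grouped by the genotype and replicate number of their labels, with 3 cultures per genotype. Libraries were poly(A)-enriched and stranded. The authors deposited raw read counts per gene symbol, not normalized or filtered. The submitters' processing notes name bcl2fastq 2.20.0.422, STAR 2.7.7a, HTSeq 0.13.5, DESeq2 1.26.0 and the genome build mm10. The 5 summary lines of the table (22.2% of reads) were left out of library sizes and tests. Reads on genes numbered 25587097 to 29126232 per library.

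The whole table was tested, and only the genes described here and related lists are given. Genes were filtered with filterByExpr (minimum count 10), scaled by TMM and compared by genotype alone by quasi-likelihood in edgeR 4.0.16 (R 4.3.3), two-sided. P-values were adjusted by Benjamini-Hochberg over the 13479 genes tested with a threshold of 0.05. The alternatives, 14 in all, were DESeq2 size factors, upper-quartile scaling, 2 other filters, the Wald test of DESeq2 1.42.0, limma-voom (limma 3.58.1), a replicate block, knockout replicates 1 and 2 summed, and each culture left out. The tests were checked on simulated data.

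All 33 genes were to be named, with up to 4 genes of each further list with the smallest p and a mean of at least 100 normalized counts. The level of the targeted gene, which the rule also names, and of 1 gene of a further list are not reported here. *Col1a1*, *Emcn*, *Tek*, *Egfl7*, *Esam*, *Kdr* and *Hsp90ab1* were added after their values were seen. The genes, lists and tests were chosen with earlier results of these data known. Gene models came from GENCODE on GRCm38, and promoters from RefSeq (GRCm38.p6).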

Additional observations from a re-analysis of the deposited data

How the results depend on the processing

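Among the 32 genes, edgeR called 0 at an adjusted p of 0.05, and the number stayed 0 under 7 of the 8 alternatives that left out no culture and was 1 with DESeq2's Wald test. Leaving out single cultures gave 0 to 1. Over all genes the number was 9, with 21 without the filter and 21 with at least 10 counts in every library. It was 627 with DESeq2, 1 with knockout replicates 1 and 2 summed, and 0 to 395 as single cultures were left out. With a replicate block it was 2 over all genes and 0 among the 32, and the same-numbered cultures correlated at 0.21, -0.19 and 0.11, so the numbers were not taken as pairs. The median of the 32 genes ran from -0.25 to -0.062 with single cultures left out. Genes without overlap numbered 9, and 7 with upper-quartile scaling (19.8% of all genes). They numbered 9 to 17 with single cultures left out, where 22.2% to 38.2% of all genes did not overlap with fewer cultures.

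Directions turned for 10 of the 32 genes. *Trib3* was 0.11 with limma-voom and 0.058 with the replicate block, and with the knockout replicates summed *Xbp1* was -0.087 and *Edem3* -0.0025. With single cultures left out, the log2 fold change ran from -0.12 to 0.29 for *Xbp1*, -0.0175 to 0.21 for *Eif2ak3*, -0.036 to 0.32 for *Ern1*, -0.62 to 0.085 for *Atf4*, -0.23 to 0.045 for *Canx*, -0.15 to 0.16 for *Syvn1*, -0.51 to 0.0092 for *Edem1*, -0.13 to 0.11 for *Edem3*, -0.64 to 0.34 for *Trib3* and -0.77 to 0.087 for *Chac1*. The cause was not tested. *Trib3* was not tested under the filter of 10 counts in every library. Read numbers were low for *Trib3*, *Chac1* and *Derl3*, and all values rested on 3 cultures per genotype.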

Other observations

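Outside the ER, the cytosolic heat shock genes, which serve the folding of proteins in the cytosol, had 15 of 17 log2 fold changes below 0, with a median of -0.35, and 4 had lower values with an unadjusted p under 0.05, against 51.9% and 5.71% of all genes. In 5 genes the knockout cultures were lower without overlap, against 9.57% of all genes. In 1, *Hsp90ab1*, named after its values were seen, they were higher without overlap, against 10.3% of all genes. It had 48844, 47936 and 47408 in the knockout cultures against 45924, 40804 and 43896 in the wildtype cultures. *Dnajb4*, a cytosolic Hsp40, was measured at 2616, 2470.2 and 3067 normalized counts in the knockout cultures and 4669.6, 4278 and 4181 in the wildtype cultures. Its knockout cultures all lay below its wildtype cultures, with a log2 fold change of -0.69 (adjusted p = 0.111, edgeR, and 0.000456 by DESeq2). *Hspb8*, a small heat shock protein that acts in selective autophagy, had 3017, 3123 and 2950.3 against 5819, 5235 and 3591, and *Hsp90aa1*, the inducible cytosolic Hsp90, 7168, 6900.4 and 6597 against 8386, 9943 and 7743, both without overlap. An adjusted p below 0.05 was reached by 0 genes of the list in edgeR and by 2 in DESeq2, against 0.0668% and 4.65% of all genes.

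Mitochondrial folding genes differed less, with 6 of 8 values below 0, a median of -0.07 and 0 genes with an unadjusted p under 0.05 in edgeR's test or an adjusted p under 0.05 by DESeq2. *Hspd1*, the mitochondrial chaperonin, had 5185, 5158 and 4636 in the knockout and 4923, 5667 and 5445 in the wildtype cultures, and *Hspa9*, the mitochondrial Hsp70, 8151, 8002 and 8104 against 7972, 9405 and 8785.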
